A study of Mus musculus with 18 samples.

Results

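The change between 8 and 24 h was followed in FGF6-treated murine brown preadipocytes, as the 3 libraries of cells treated for 24 h against the 3 libraries treated for 8 h, 6 of the 18 libraries of the series. All genes with enough counts for a test were members, 15071 of the 48023 genes in the count table. The cells were a single immortalized line made from precursors of mouse brown fat, so that every group shares that line, and the FGF6 groups received the growth factor at 200 ng/ml. Vehicle cells (Veh) at 8 and 24 h, again 3 libraries each, had the same times in culture without FGF6, and were used to tell which changes also took place without it. The 4 h libraries of both arms entered the fit and are shown in the plots. RNA was sequenced in bulk, and nothing in the labels says that the 3 libraries of a group came from separate cultures, so that the spread between them may be technical.

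FGF6 is a secreted fibroblast growth factor. Such factors bind FGF receptor tyrosine kinases together with heparan sulfate on the cell surface, and the receptors signal through the Ras and MAP kinase cascade, which first switches on immediate early transcription factors and then its own inhibitors, such as the Sprouty proteins and the dual-specificity phosphatases. Brown preadipocytes are fibroblast-like cells that secrete collagen-rich matrix, divide, and can become brown adipocytes, which burn fuel for heat through the mitochondrial uncoupling protein UCP1.

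The libraries of the comparison held between 24327816 and 30903113 counts at 8 h and between 27711698 and 28435847 at 24 h, and the 18 libraries between 24327816 and 33471980. Of 18 preadipocyte markers, 15 reached a mean of 1 CPM (counts per 1000000) in every group, and their summed level was 7870 to 8137 CPM at 8 h and 7721 to 7967 CPM at 24 h in the FGF6 libraries. Among 6 macrophage and leukocyte markers, Ptprc, Adgre1, and Itgam had too few counts for a test, and the 6 together summed to 10.8 to 11.5 CPM at 8 h and 3.39 to 4.04 CPM at 24 h. In a vehicle library of 24 h, replicate 3, 7 genes that hold or resemble ribosomal RNA summed to 19418.5 CPM, against 1385.0 and 1396.7 in the other two. In the FGF6 libraries the same sum was 972.0 to 1014.5 CPM at 8 h and 1497.9 to 1634.8 CPM at 24 h, and its part in the results was not tested. All libraries share the estimate of the spread, and counts of changed genes are given also without that vehicle library.

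From 8 to 24 h in the FGF6-treated cells, about as many genes rose as fell, but more fell than rose by large amounts. At an adjusted p under 0.05 in edgeR's quasi-likelihood test, 9386 genes changed, which was 62.3% of those tested, with 4686 higher (31.1%) and 4700 lower (31.2%). Without vehicle 24 h replicate 3 in the fit, 9471 changed. A change of at least 2-fold was seen for 598 genes upward (3.97%) and 1175 downward (7.8%), and of at least 4-fold for 112 upward and 393 downward. The median log2 change over all genes was -0.01, and the 3 libraries of 8 h and the 3 of 24 h did not overlap for 10009 genes (66.4%). Counts of changed members in the gene lists are to be read against these shares.

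Fewer genes changed in vehicle cells over the same hours. There 7414 genes passed the test (49.2%), and 379 rose (2.51%) and 296 fell (1.96%) by at least 2-fold. Without vehicle 24 h replicate 3, 6887 genes passed. Of the 598 genes that rose at least 2-fold with FGF6, 104 (17.4%) also rose at least 2-fold in vehicle, and of the 1175 that fell, 146 (12.4%) also fell that far. The difference of the change between the arms, tested as an interaction, passed for 6797 genes (45.1%; 6607 without that library). The difference was lower by at least 2-fold for 980 genes (6.5%) and higher for 300 (1.99%). It was called, with the larger change in FGF6 cells, for 313 of the 598 rising and 814 of the 1175 falling genes. Both changes are set against each other gene by gene in the plot of FGF6 and vehicle log2 changes.

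**Figure D1:**
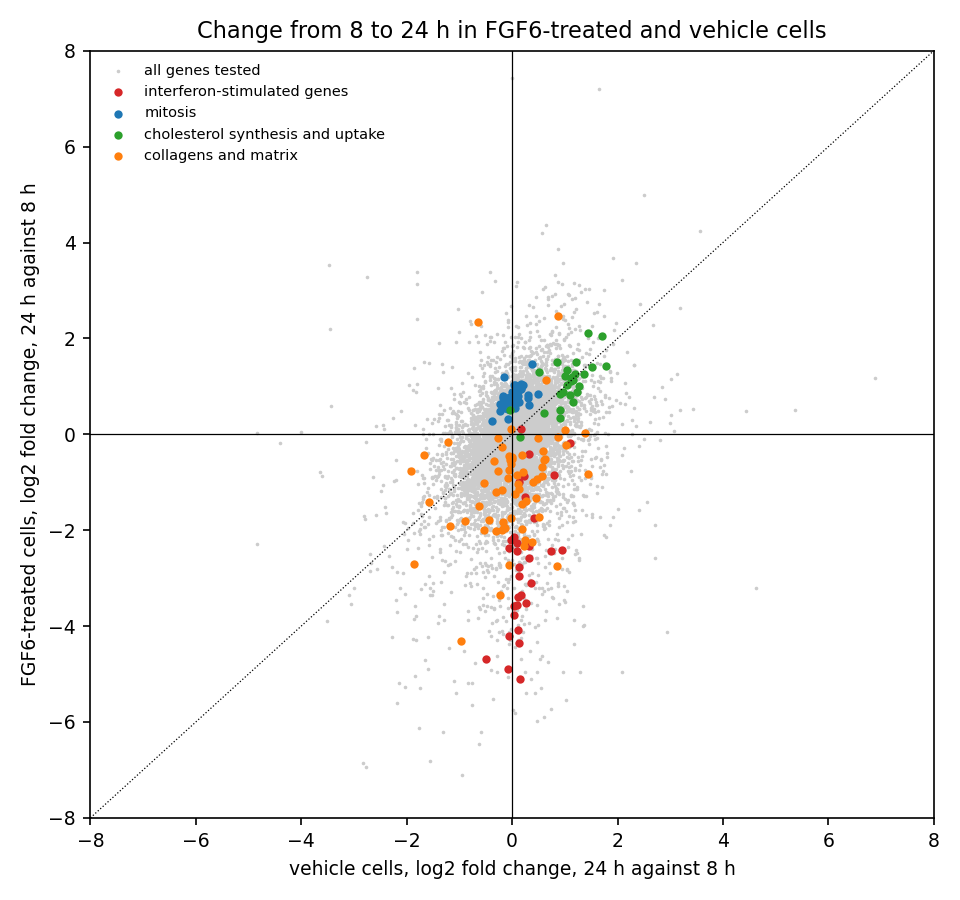
Log2 fold change from 8 to 24 h in vehicle cells (x axis) and in FGF6-treated cells (y axis), 1 point per gene tested, with the members of 4 gene lists in colour; the dotted line marks equal change. The interferon-stimulated genes lie below 0 on the y axis, except Oasl1 (0.10), and near 0 on the x axis (medians -2.51 and 0.14). The mitotic genes lie above 0 on the y axis (medians 0.76 and 0.05), and the cholesterol genes lie close to the dotted line (1.12 and 1.11).

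Members of the gene lists described in the following paragraphs are drawn together in the plot of lists by arm.

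**Figure D2:**
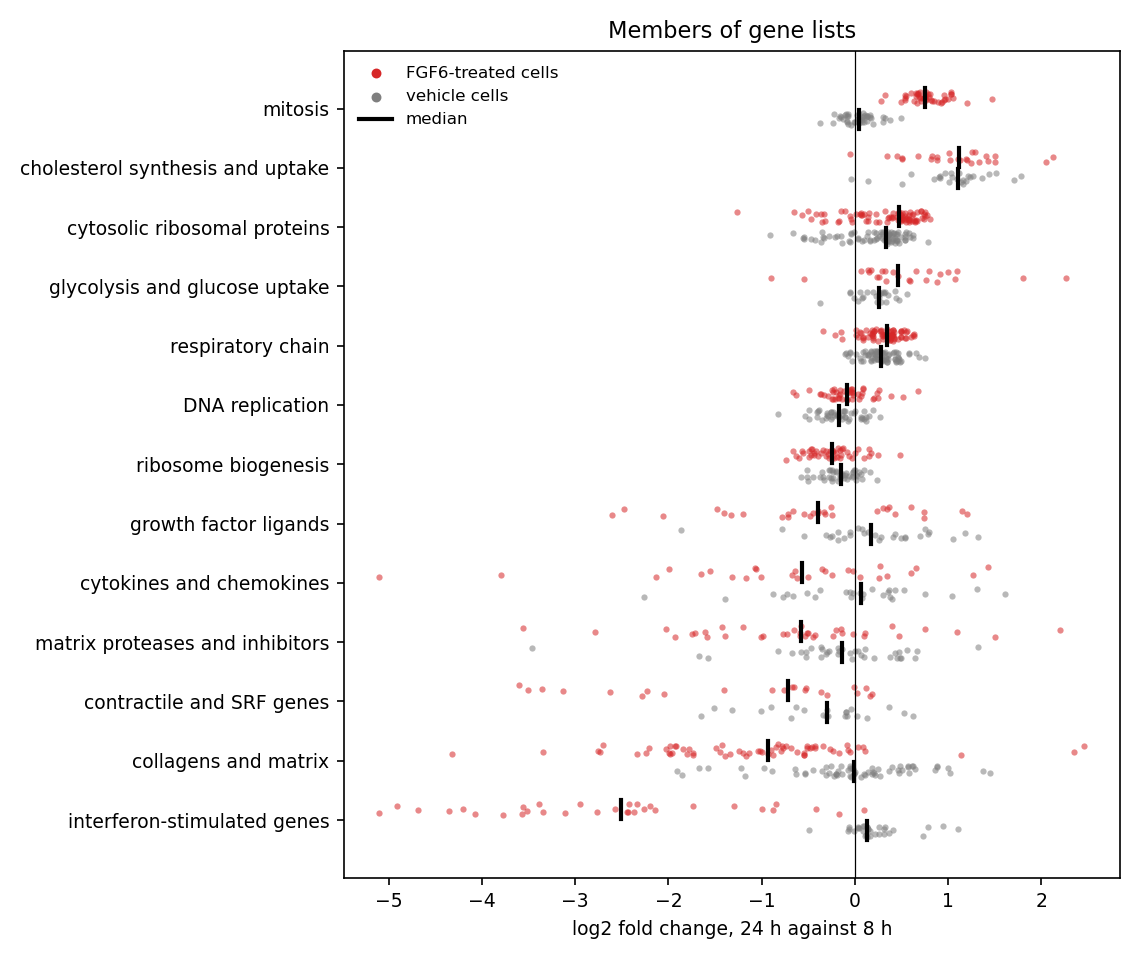
Log2 fold change from 8 to 24 h (x axis) of the tested members of gene lists (rows), with 1 point per gene, FGF6-treated cells in red, vehicle cells in grey, and black bars at the medians. The red and grey medians lie far apart for the interferon-stimulated genes (-2.51 and 0.14), the matrix genes (-0.93 and -0.01), and mitosis (0.76 and 0.05), and close together for cholesterol synthesis and uptake (1.12 and 1.11).

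Nearly all interferon-stimulated genes fell. They encode antiviral proteins, antigen-processing subunits, and IRF factors, among others. Of 32 such genes tested, 30 fell and none rose, 27 of them at least 2-fold, with a median log2 change of -2.51. The exceptions were Ifit2 (-0.18) and Oasl1 (0.10), which did not pass. In vehicle cells 7 rose and none fell (median 0.14), and the interaction was called lower in FGF6 cells for 31 of the 32. The median level of these genes over the list was 73.3, 53.7, and 65.3 CPM in the 3 libraries of 8 h and 8.32, 8.16, and 11.7 CPM in those of 24 h.

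Ifi44 (ENSMUSG00000028037, GRCm38 chr3:151730922-151749960, minus strand), an interferon-induced gene of little known biochemical function, stood at 81.9, 50.3, and 67.1 CPM at 8 h and at 1.53, 1.29, and 3.01 CPM at 24 h. Its log2 change was -5.10 ± 0.32 (SE, adjusted p = 4.36e-13), against 0.15 in vehicle, where the levels were 116, 152, and 183 CPM at 8 h and 155, 184, and 159.8 CPM at 24 h. The 8 h and 24 h libraries were thus far apart with FGF6 and overlapped without it. For Mx2, a GTPase that acts against viruses, the values were 29.5, 18.5, and 31.1 CPM at 8 h and 0.875, 0.393, and 1.36 CPM at 24 h, a log2 change of -4.90 ± 0.40 (adjusted p = 8.19e-11). Oas2, which makes the second messenger that activates RNase L, went from 21.0, 11.3, and 15.0 CPM to 0.182, 0.143, and 0.697 CPM (-5.53 ± 0.47, adjusted p = 1.65e-10). In vehicle cells Mx2 changed by -0.07 and Oas2 by -0.36 on the log2 scale. Replicate 1 of FGF6 8 h was the highest of its group in Ifi44 and Oas2. In all 3 genes each 8 h library lay well above every 24 h library, but lack of overlap was part of the rule that chose them. Oas, Mx, Ifit, and Gbp genes have close copies in the genome, and how reads matching several copies were counted is not given in the sources used here.

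These genes were already lower at 8 h than at 4 h in FGF6 cells, a difference that was not tested here. At 4 h the FGF6 libraries held 144, 167, and 111 CPM of Ifi44, and the median over the list was 155.0, 177.7, and 122.0 CPM. The plot by library shows the same order of the 3 times for 6 of these genes.

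**Figure D3:**
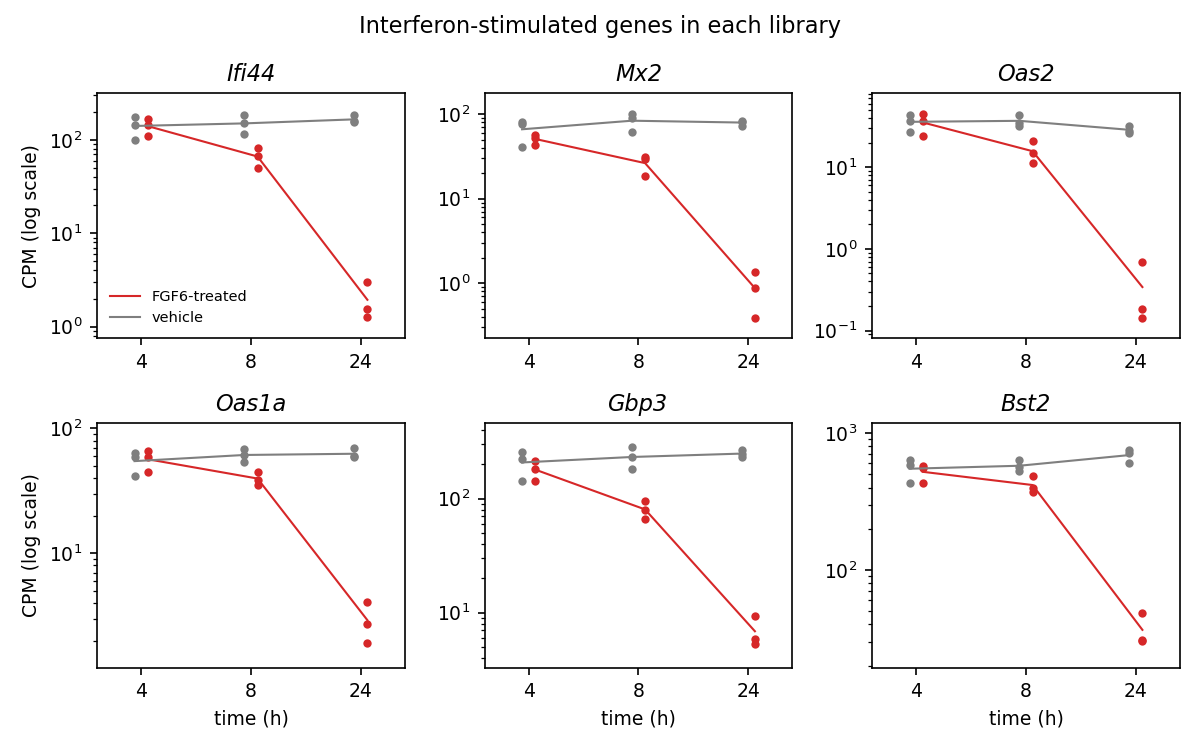
Level in CPM (log scale) of 6 interferon-stimulated genes at 4, 8, and 24 h, with 1 point per library, lines through the group means, FGF6-treated cells in red and vehicle cells in grey. In every panel the 3 FGF6 libraries of 24 h lie below all other libraries, for Ifi44 at 1.53, 1.29, and 3.01 CPM.

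Interferon-stimulated genes share a promoter element, the ISRE, which IRF factors bind. Written as GAAA, any pair of bases, and GAAA, and searched on both strands from 250 bases before to 50 after the RefSeq start (GRCm38.p6), it was found in 15 of 30 promoters of the tested members (50%) and in 3.44% of all 32851 promoters in the table. Promoters were found for 26 of the 32 members. Shown here, because they carry the element upstream of the start, are 90 bases of the 3 members with the largest fall that do so, among those searched, 5′ to 3′ along the gene and with the matches in capitals. In each, a pair of matches overlaps to form a longer run.
Oas1a, GRCm38.p6 chr5:120907526-120907615, minus strand, 90 to 1 bases before the start: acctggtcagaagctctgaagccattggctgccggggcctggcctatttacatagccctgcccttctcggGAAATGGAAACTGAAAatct
Gbp3, GRCm38.p6 chr3:142559954-142560043, plus strand, 90 to 1 bases before the start: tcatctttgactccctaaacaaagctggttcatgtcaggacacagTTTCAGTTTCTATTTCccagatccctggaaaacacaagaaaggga
Bst2, GRCm38.p6 chr8:71537547-71537636, minus strand, 164 to 75 bases before the start: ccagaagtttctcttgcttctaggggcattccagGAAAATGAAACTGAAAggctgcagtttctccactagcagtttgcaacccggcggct
Oas1a, another synthetase of the RNase L pathway, had 45.0, 35.2, and 38.9 CPM at 8 h and 2.70, 1.93, and 4.11 CPM at 24 h (-3.77 ± 0.21 on the log2 scale). Gbp3, a guanylate-binding GTPase, had 95.4, 67.0, and 79.1 and then 5.33, 5.89, and 9.36 CPM (-3.55 ± 0.24). Bst2, or tetherin, which holds budding viruses at the cell surface, had 486, 370.5, and 395 and then 30.7, 30.2, and 48.6 CPM (-3.51 ± 0.16). A match describes these letters, and binding was not measured.

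Cytokines and chemokines were mostly lower as well. Of 28 tested, 18 fell and 4 rose (median -0.56, against 0.07 in vehicle), with 11 of the falls at least 2-fold. Ccl11 (eotaxin), which attracts eosinophils, fell from 2.57, 2.59, and 2.75 CPM to 0.0729, 0.0714, and 0.0734 CPM, while vehicle cells went from 0.947, 0.667, and 0.890 to 1.05, 1.03, and 1.14 CPM. Those 24 h values are 2 counts in each library, and the ratio of 8 h to 24 h counts was 36.2 (95% counting interval 16.4 to 99.8, counting error only). Lcn2, a secreted protein that binds bacterial siderophores, fell from 77.4, 68.9, and 66.1 CPM to 5.58, 4.93, and 4.77 CPM (-3.80 ± 0.12, adjusted p = 9.21e-19), and also fell in vehicle (-1.39). Cxcl9, an interferon-gamma-induced chemokine, went from 4.72, 2.15, and 3.16 CPM to 0.0729, 0.0714, and 0.330 CPM with FGF6 (-4.38) and rose in vehicle from 10.7, 9.34, and 11.5 to 19.8, 26.4, and 24.4 CPM (1.17). The opposite was seen for Il33, an alarmin stored in the nucleus, which rose from 37.0, 34.4, and 38.5 CPM to 104, 97.5, and 92.8 CPM (1.43 ± 0.05, adjusted p = 2.84e-17) and stood at or below 0.856 CPM in the vehicle libraries of both times. Il11, a cytokine of the interleukin-6 family made by fibroblasts, rose from 5.66, 5.41, and 4.23 CPM to 14.4, 10.9, and 11.7 CPM (1.26 ± 0.14). Beside these changes, each of the 3 tested macrophage markers fell, Cd68 for example from 9.77, 10.3, and 9.86 CPM to 2.99, 3.64, and 3.08 CPM, and their part in the result was not tested. In bulk RNA, fewer cells of a type and less RNA per cell cannot be told apart.

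Among the 12 named genes with the largest fall, C4b, Kng1, Saa3, Lbp, Hp, Serpina3n, and Agt encode proteins known from plasma, a grouping made after their values were seen. C4b, a complement component, stood at 38.8, 28.7, and 31.4 CPM at 8 h and at 0.146, 0.143, and 0.514 CPM at 24 h (-6.93 ± 0.21, adjusted p = 2.23e-19). Saa3, a serum amyloid A protein, went from 334, 291, and 303 CPM to 1.97, 2.07, and 4.26 CPM (-6.81 ± 0.19, adjusted p = 4.34e-20). Hp (haptoglobin), which binds free hemoglobin, went from 44.7, 41.0, and 44.4 CPM to 0.912, 0.750, and 0.991 CPM (-5.61 ± 0.14). All of these also fell in vehicle, by -2.76, -1.56, and -2.18 on the log2 scale, and for each the interaction was called (-4.17, -5.25, and -3.43). Agt, the precursor of angiotensin, had 94.8, 89.5, and 105 CPM at 8 h and 2.52, 1.86, and 3.60 CPM at 24 h (-5.18 ± 0.10, adjusted p = 7.58e-23). Vehicle cells also had less Agt at 24 h, with 4146, 4591, and 3050 counts (145, 138, and 128 CPM) against 7391, 8159, and 7140 counts at 8 h. The interaction was called for Agt as well (-4.34). Serpina3n, a protease inhibitor with near-identical gene neighbours, fell by a log2 change of -5.27 ± 0.18, and in vehicle by -2.03. Kng1, the precursor of kinins, fell from 4.85, 4.84, and 4.36 CPM to 1 count in each 24 h library, a ratio of counts of 129.6 (95% counting interval 44.0 to 631.3). It fell in vehicle as well, from 12.3, 14.6, and 13.6 to 2.07, 1.75, and 1.85 CPM. Lbp, which binds bacterial lipopolysaccharide, fell from 1.63, 1.51, and 1.68 CPM to 2, 0, and 0 counts, a ratio of 66.3 (18 to 552.9), while the vehicle libraries held 3.54, 3.27, and 3.49 and then 3.96, 3.44, and 3.36 CPM (0.06 on the log2 scale). Egfl6, a secreted protein with EGF-like repeats, fell from 1.95, 1.51, and 1.60 CPM to 0, 0, and 2 counts, a ratio of 70.2 (19.1 to 585.1), and rose in vehicle from 4.20, 5.05, and 3.46 to 6.10, 6.51, and 6.85 CPM.

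Matrix genes fell as a group. Of 65 collagens, laminins, and other matrix genes tested, 51 fell and 5 rose, 30 of the falls being at least 2-fold, and the median was -0.93, against -0.01 in vehicle, where 27 rose and 20 fell. The interaction was lower in FGF6 cells for 48 and higher for 7. The median level over the list was 67.7 to 70.6 CPM at 8 h and 30.9 to 32.1 CPM at 24 h.

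Col5a3 (ENSMUSG00000004098, GRCm38 chr9:20770050-20815067, minus strand), a chain of the fibril-regulating collagen V, stood at 323, 312, and 329 CPM at 8 h and 32.0, 32.1, and 30.9 CPM at 24 h (-3.34 ± 0.04, adjusted p = 1.03e-26). Vehicle cells went from 189, 193, and 187 CPM to 154, 171, and 164 CPM. Col15a1, a basement membrane collagen, fell from 121, 123, and 128 CPM to 6.02, 5.22, and 7.45 CPM (-4.31 ± 0.09). Col1a1, the main chain of fibrillar collagen I, fell from 1682, 1549.9, and 1522 CPM to 418, 431, and 482 CPM (-1.84 ± 0.05, adjusted p = 7.67e-20), against 3052, 3278, and 2990.4 CPM in the vehicle libraries of 24 h. Ccn5, a matricellular protein counted among the preadipocyte markers, fell from 64.1, 54.8, and 56.9 CPM to 6.05, 5.18, and 8.40 CPM (-3.16 ± 0.09). Small leucine-rich proteoglycans, which bind collagen fibrils, went both ways. Dcn (decorin) rose from 28.6, 25.8, and 23.3 CPM to 162, 121, and 114 CPM (2.35 ± 0.10, adjusted p = 4.58e-16) and fell in vehicle (-0.64). Lum (lumican) rose from 0.781, 1.48, and 1.27 CPM to 6.75, 6.86, and 5.80 CPM (2.46 ± 0.22). Ogn (osteoglycin), in contrast, fell from 8.46, 9.04, and 7.48 CPM to 1.82, 1.82, and 2.17 CPM (-2.11 ± 0.16) while vehicle cells gained it, from 27.7, 29.8, and 31.5 to 88.9, 103, and 106 CPM.

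Of 37 matrix proteases and inhibitors, 21 fell and 6 rose (median -0.58, vehicle -0.14). Timp3, an inhibitor of metalloproteinases, fell from 407, 379.7, and 409 CPM to 57.9, 57.1, and 58.5 CPM (-2.78 ± 0.03, adjusted p = 2.59e-27), against -0.30 in vehicle. Mmp3 (stromelysin), a metalloproteinase that cuts many matrix proteins, rose from 4.23, 3.80, and 3.74 CPM to 13.2, 10.8, and 9.36 CPM (1.50 ± 0.13) and fell in vehicle, where it was at or below 0.667 CPM at 8 and 24 h. Contractile genes and targets of the serum response factor SRF fell for 14 of 22 tested and rose for 3 (median -0.72, vehicle -0.30), with 9 falls of at least 2-fold. Acta1, skeletal alpha-actin, went from 2.96, 2.18, and 1.48 CPM to 0.255, 0.0714, and 0.220 CPM (-3.60 ± 0.39, adjusted p = 1.34e-08). The 6 skeletal muscle markers, Acta1 among them, summed to 5.31 to 6.77 CPM at 8 h and 1.29 to 1.76 CPM at 24 h with FGF6, and in vehicle to 10.1 to 12.9 and 6.87 to 10.4 CPM; their part in the contractile result was not tested. AP-1 sites (TGANTCA, both strands), bound by FOS and JUN dimers, were found in 6 of 23 promoters of the protease list (26.1%) and in 7.81% of all promoters.

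**Figure D4:**
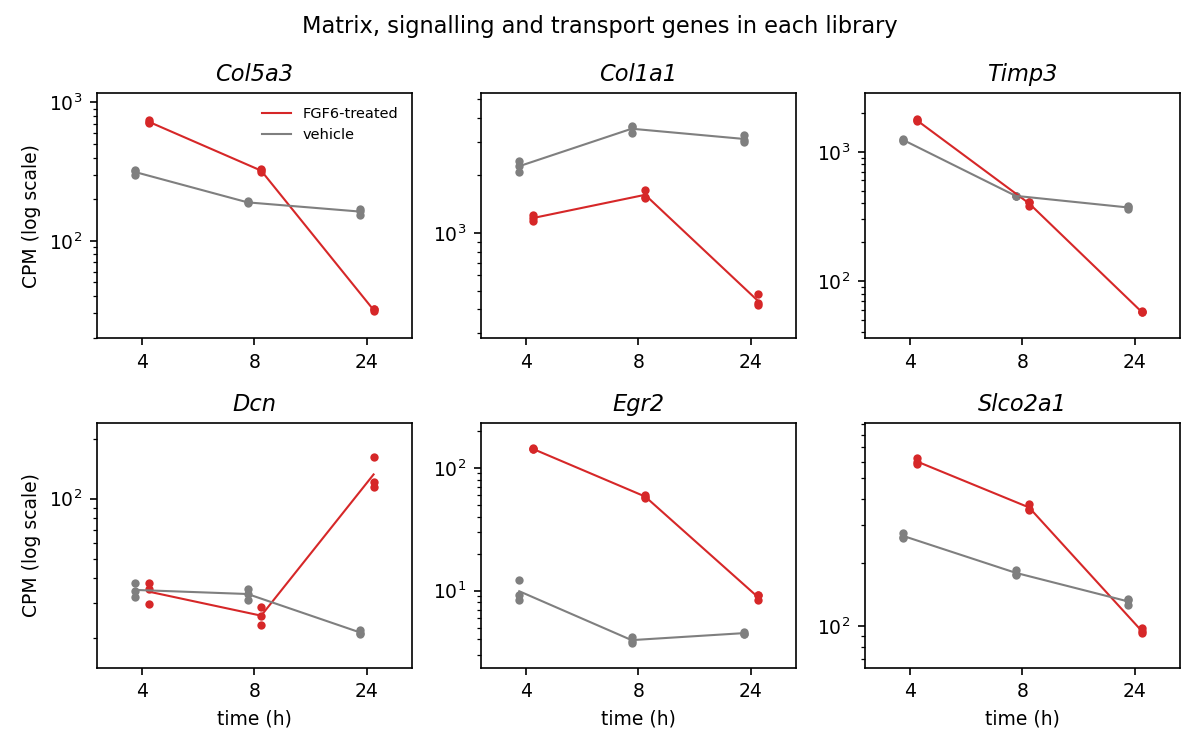
Level in CPM (log scale) of matrix, signalling, and transport genes at 4, 8, and 24 h, with 1 point per library, lines through the group means, FGF6-treated cells in red and vehicle cells in grey. In the FGF6 libraries Col5a3, Col1a1, Timp3, Egr2, and Slco2a1 lie lower at 24 h than at 8 h and Dcn lies higher, with Timp3 between 57.1 and 58.5 CPM at 24 h and between 380 and 409 CPM at 8 h.

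Genes of mitosis rose together. All 45 tested, which serve chromosome condensation, the spindle, its checkpoint, and cytokinesis, passed upward, against 31.1% of all genes, with log2 changes from 0.28 to 1.47 and a median of 0.76. In vehicle 17 rose and 9 fell (median 0.05), and the interaction was called higher in FGF6 cells for all 45. The median level over the list was 85.9, 90.5, and 88.2 CPM at 8 h and 155.4, 160.2, and 156.3 CPM at 24 h, against 113.9 to 118.5 and 109.3 to 116.2 CPM in vehicle.

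Ccnb2 (ENSMUSG00000032218, GRCm38 chr9:70407692-70421547, minus strand), a mitotic cyclin, rose from 42.6, 41.9, and 43.3 CPM to 114, 121, and 119 CPM (1.47 ± 0.05, adjusted p = 1.83e-18). At 24 h its libraries overlapped the 109, 116, and 113 CPM of vehicle, which had gone up less, from 84.1, 89.5, and 87.8 CPM (interaction 1.10, adjusted p = 1.09e-12). Bub1, a kinase of the spindle checkpoint, rose from 63.3, 60.6, and 58.4 CPM to 140.0, 143, and 138 CPM (1.20 ± 0.04, adjusted p = 1.79e-18), with vehicle at 89.2, 87.3, and 92.4 and then 81.3, 78.8, and 83.3 CPM. The FGF6 libraries thus went from below to above the vehicle libraries in Bub1.

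Genes of DNA replication did not move that way. Of 46 tested, 7 rose and 22 fell, against 31.1% and 31.2% of all genes, and none of them changed 2-fold (median -0.08, vehicle -0.17). In vehicle 6 rose and 31 fell, and the interaction was called higher in FGF6 cells for 19 and lower for 9. Cdt1, which licenses replication origins, fell from 184, 185, and 178 CPM to 114, 114, and 123 CPM (-0.63 ± 0.04) against 0.00 in vehicle. Pold1, the catalytic subunit of DNA polymerase delta, fell by a log2 change of -0.66 ± 0.04. Rrm1, the large subunit of ribonucleotide reductase, was among the rising members, from 311, 320.3, and 325 CPM to 459, 463, and 448 CPM (0.52 ± 0.03). Of 26 G1 cyclins and growth arrest genes, 13 rose and 8 fell. Ccng2, a cyclin found in resting cells and a FoxO target, rose from 10.03, 10.8, and 11.2 CPM to 92.1, 93.9, and 92.9 CPM (3.12 ± 0.07, adjusted p = 2e-21), more than in vehicle (1.27). Cdk6, a kinase of the G1 phase, fell from 70.0, 72.9, and 78.8 CPM to 47.2, 44.8, and 43.3 CPM (-0.71 ± 0.06).

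Mitotic promoters are known for CCAAT boxes, bound by NF-Y, and for the CHR element, bound by the DREAM and MuvB complexes. CCAAT was found in 31 of 39 promoters of the mitosis list (79.5%) and in 37.4% of all promoters, and TTNGAA, the CHR, in 32 (82.1%) against 40.3%, both read on either strand. Promoters were found for 37 of the 45 members. The E2F site of replication genes (TTTNGCGC) was found in 12 of 44 promoters of the replication list (27.3%) and in 1.38% of all. Shown are 90 bases upstream of the start for the 3 members with the largest rise, among those searched, that hold both a CCAAT box and a CHR in such a stretch. Each stretch was placed around the CHR nearest the start, with the matches in capitals.
Ect2, GRCm38.p6 chr3:27153945-27154034, minus strand, 156 to 67 bases before the start: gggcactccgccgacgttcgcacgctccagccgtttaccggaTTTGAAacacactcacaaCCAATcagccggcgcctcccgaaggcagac
Ube2c, GRCm38.p6 chr2:164769839-164769928, plus strand, 90 to 1 bases before the start: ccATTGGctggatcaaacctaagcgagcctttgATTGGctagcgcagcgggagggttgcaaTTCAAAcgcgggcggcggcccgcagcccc
Top2a, GRCm38.p6 chr11:99024190-99024279, minus strand, 90 to 1 bases before the start: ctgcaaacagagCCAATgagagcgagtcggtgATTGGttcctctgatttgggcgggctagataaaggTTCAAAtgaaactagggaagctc
Ect2, which starts cytokinesis by activating RhoA, had 93.4, 101, and 98.2 CPM at 8 h and 186, 174, and 181 CPM at 24 h (0.89 ± 0.04). Ube2c, the ubiquitin-conjugating enzyme of the anaphase-promoting complex, had 120.2, 119.9, and 111 and then 193, 206, and 215 CPM (0.80 ± 0.04). Top2a, topoisomerase II alpha, which untangles sister chromatids, had 445, 467, and 466 and then 794, 781, and 759 CPM (0.76 ± 0.03). The promoters of Ube2c and Top2a hold 2 CCAAT boxes in the stretch shown.

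Genes of cholesterol synthesis and uptake rose in both arms. Of 26 tested, 25 rose with FGF6, 16 of them at least 2-fold, and 25 rose in vehicle, with medians of 1.12 and 1.11. The interaction was called for 16, higher in FGF6 cells for 8 and lower for 8. The median level over the list was 65.8 to 69.0 CPM at 8 h and 160.4 to 174.3 CPM at 24 h with FGF6, and 101.4 to 112.6 and 222.4 to 240.4 CPM in vehicle.

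Hmgcs1 (ENSMUSG00000093930, GRCm38 chr13:119690379-119708260, plus strand), the synthase before the rate-limiting step, rose from 105, 92.9, and 94.3 CPM to 408, 429.9, and 433 CPM (2.12 ± 0.05, adjusted p = 7.2e-21), and in vehicle from 303, 285, and 296 to 742, 822, and 835 CPM (1.44). Insig1, which retains the sterol sensor SCAP in the endoplasmic reticulum, rose from 60.5, 55.5, and 51.9 CPM to 221, 231, and 243 CPM (2.05 ± 0.06), and in vehicle by 1.71. The sterol element TCACNCCAC of SREBP, searched on both strands, was found in 1 of 21 promoters of the list (4.76%) and in 1.24% of all promoters. It was that of Hmgcs1, shown for 90 bases upstream of its RefSeq start with the match in capitals.
Hmgcs1, GRCm38.p6 chr13:119690173-119690262, plus strand, 178 to 89 bases before the start: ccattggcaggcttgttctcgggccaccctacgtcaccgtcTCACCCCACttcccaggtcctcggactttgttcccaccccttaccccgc

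Fat-making genes were mixed. Among 30 adipogenic and lipid storage genes, 12 rose and 8 fell with FGF6 (median 0.21), near the 31.1% and 31.2% of all genes. In vehicle 21 rose and 1 fell (median 0.46), and the interaction was lower in FGF6 cells for 16 and higher for 1. Scd2, a stearoyl-CoA desaturase, rose from 916, 869, and 853 CPM to 2896, 2998, and 3093 CPM (1.77 ± 0.05), more than in vehicle (1.26). Elovl6, which lengthens fatty acids, rose in both arms, by 1.12 ± 0.06 with FGF6 and 1.08 in vehicle, and the interaction did not pass (difference 0.04, adjusted p = 0.749). Lpl, lipoprotein lipase, fell from 275, 245, and 261 CPM to 85.5, 78.2, and 84.3 CPM (-1.66 ± 0.05, adjusted p = 5.34e-20), and vehicle cells held 1341, 1373, and 1464 CPM and then 1339, 1454, and 1471 CPM. Adipoq (adiponectin), a hormone of mature adipocytes, had 7, 3, and 5 counts in the FGF6 libraries of 8 h and 0 in each of those of 24 h.

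**Figure D5:**
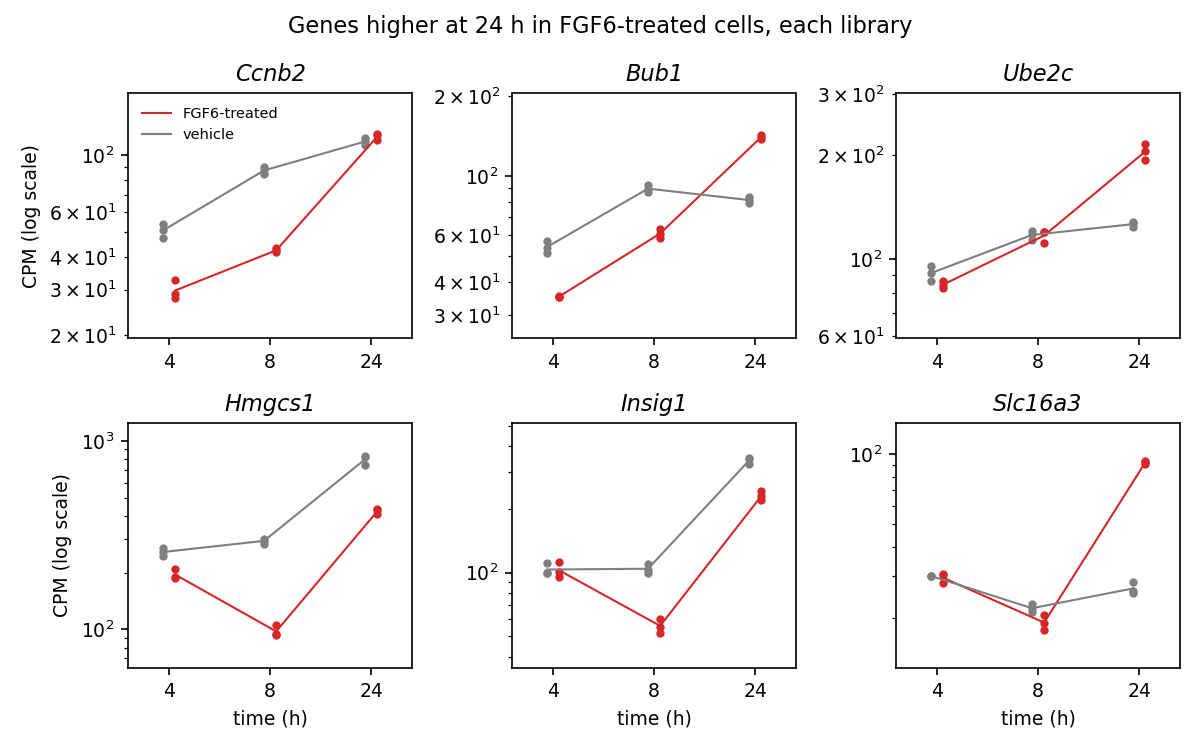
Level in CPM (log scale) of 6 genes that rose from 8 to 24 h with FGF6, with 1 point per library at 4, 8, and 24 h, lines through the group means, FGF6-treated cells in red and vehicle cells in grey. Hmgcs1 and Insig1 rise in both arms, while Bub1, Ube2c, and Slc16a3 rise mainly in the FGF6 libraries, Slc16a3 from 17.7 to 20.5 CPM at 8 h to 90.8 to 93.4 CPM at 24 h.

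Genes of glucose use rose with FGF6. Of 25 genes of glycolysis and glucose uptake, 21 rose and 2 fell (median 0.47, vehicle 0.26), and the interaction was higher in FGF6 cells for 14 and lower for 4. Slc16a3, the lactate exporter MCT4, rose from 20.5, 17.7, and 19.0 CPM to 93.4, 90.8, and 91.9 CPM (2.27 ± 0.05, adjusted p = 9.65e-22), against 0.28 in vehicle. Pdk1, the kinase that holds back pyruvate dehydrogenase, rose from 32.4, 33.3, and 33.3 CPM to 122, 108, and 115 CPM (1.80 ± 0.05, adjusted p = 4.07e-20). The falling members were Eno2, the neuronal enolase (-0.90 ± 0.07), and Pdk4 (-0.54 ± 0.11). Outside this list, Car9, Ankrd37, Bnip3, and Ddit4 also rose with FGF6. Car9, a cell-surface carbonic anhydrase, rose from 0.651, 0.672, and 1.27 CPM to 11.6, 10.8, and 10.1 CPM (3.68 ± 0.19, adjusted p = 1.26e-14) and in vehicle from 2.49, 1.46, and 1.92 to 8.23, 7.06, and 7.02 CPM. Ankrd37, an ankyrin repeat protein, rose from 1.14, 1.04, and 0.863 CPM to 13.2, 12.2, and 11.4 CPM (3.58 ± 0.17). Bnip3, a mitochondrial protein of mitophagy, rose from 15.9, 13.7, and 11.9 CPM to 75.4, 69.0, and 69.2 CPM (2.35 ± 0.07, adjusted p = 3.07e-19). Ddit4 (REDD1), an inhibitor of mTORC1, rose from 19.6, 18.9, and 17.8 CPM to 140.3, 152, and 149.9 CPM (2.97 ± 0.07, adjusted p = 7.74e-22), and in vehicle by 1.30.

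Respiratory chain subunits moved by small amounts in both arms. Of 73 nuclear-encoded subunits tested, 61 rose and 2 fell, none by 2-fold, with medians of 0.35 with FGF6 and 0.28 in vehicle. All 7 mitochondrially encoded genes tested rose (median 0.34, vehicle 0.08), with the interaction called for 5. mt-Nd1, a subunit of complex I, went from 2609, 2592, and 2556 CPM to 4166, 4107, and 4199 CPM (0.69 ± 0.03). With an offset for GC content and length, these medians were 0.20 for the nuclear-encoded and 0.12 for the mitochondrially encoded genes.

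The parts of the ribosome and the factors that build it went in different directions. Of 82 cytosolic ribosomal protein genes, 57 rose and 10 fell (median 0.47, vehicle 0.33), while of 46 ribosome biogenesis genes 6 rose and 35 fell (median -0.24, vehicle -0.15). Rpl39, a small protein of the large subunit, rose from 29.0, 29.4, and 31.5 CPM to 49.8, 56.0, and 51.2 CPM (0.81 ± 0.06). In vehicle it rose by 0.625, with no called difference between the arms (adjusted p = 0.0769). Rrp12, needed to export ribosomal subunits from the nucleus, fell from 124, 123, and 121 CPM to 78.2, 78.9, and 75.1 CPM (-0.66 ± 0.04). Ribosomal protein genes have many pseudogene copies, so that their counts are uncertain. Of 24 chaperones of the endoplasmic reticulum, 14 rose and 7 fell (median 0.16, vehicle -0.07), with Hsp90b1 (GRP94) rising from 1261, 1189.7, and 1155 CPM to 1923, 1864, and 1853 CPM (0.65 ± 0.04). Of 40 genes of the amino acid response, 19 rose and 11 fell (median 0.05), and the transporters Slc1a5 (-0.90 ± 0.04) and Slc7a1 (-0.65 ± 0.05) fell. The amino acid response element TGATGNAA was found in 13 of 35 promoters of that list (37.1%) and in 3.97% of all.

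Signalling downstream of the receptor was mixed. Of 27 immediate early genes tested, 11 rose and 12 fell (median -0.05, vehicle 0.19; 0.05 without FGF6 8 h replicate 1), and the interaction was lower in FGF6 cells for 14 and higher for 4. Egr2, a zinc finger factor induced by growth factors, fell from 60.6, 57.7, and 56.8 CPM to 9.12, 8.43, and 9.18 CPM (-2.71 ± 0.08, adjusted p = 5.34e-20), and from 142, 142, and 145 CPM at 4 h. Even so, each FGF6 library of 24 h lay above the 4.45, 4.43, and 4.62 CPM of vehicle. Ier5 fell from 266, 253, and 251 CPM to 145, 136, and 141 CPM (-0.86 ± 0.04). Ier3, a regulator of survival under stress, rose from 174, 163, and 149 CPM to 409, 373, and 367 CPM (1.24 ± 0.05, adjusted p = 4.12e-16), against 30.4, 33.6, and 33.7 CPM in vehicle at 24 h. The CRE core TGACGTC was found in 6 of 27 promoters of this list (22.2%) and in 3.21% of all.

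Among 27 feedback genes of the FGF and MAP kinase route, 13 rose and 10 fell (median 0.06, vehicle 0.15). Etv1, an ETS factor downstream of FGF signalling, rose from 2.44, 2.02, and 1.64 CPM to 8.64, 8.89, and 8.07 CPM (2.06 ± 0.16, adjusted p = 4.09e-11). The Sprouty inhibitors were not alike. Spry3 rose from 4.53, 6.32, and 6.49 CPM to 19.0, 16.1, and 18.7 CPM (1.64 ± 0.11), and Spry1 fell from 4.43, 5.21, and 5.46 CPM to 2.33, 2.36, and 2.35 CPM (-1.09 ± 0.15). Spry3 rose from below the vehicle level, with 139, 188, and 158 counts with FGF6 at 8 h against 516, 485, and 420 in vehicle. At 24 h the counts were 520, 452, and 510 with FGF6 and 389, 417, and 367 in vehicle. Of 16 FGF receptors and co-receptors, 2 rose and 10 fell (median -0.28, vehicle -0.13). Sdc1 (syndecan-1), a heparan sulfate proteoglycan, fell from 545, 531, and 513 CPM to 229, 235, and 230.2 CPM (-1.20 ± 0.04, adjusted p = 8.57e-19). At 4 h with FGF6 it had stood at 1454, 1536, and 1448 CPM. Sdc1 was also lower at 24 h than at 8 h in vehicle, by -0.67 on the log2 scale (interaction -0.53). Fgfrl1, a receptor without a kinase domain, rose from 52.2, 47.3, and 53.0 CPM to 67.9, 72.7, and 76.5 CPM (0.51 ± 0.05).

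Growth factor ligands fell more often than they rose, 18 against 9 of 30 tested (median -0.39, vehicle 0.18). Igf1 fell from 1.89, 1.92, and 1.89 CPM to 0.255, 0.286, and 0.477 CPM (-2.47 ± 0.22) and rose in vehicle from 9.60, 8.68, and 8.93 to 15.2, 14.5, and 14.4 CPM. Igf2, the related fetal growth factor, fell from 19.6, 22.2, and 17.4 CPM to 3.32, 3.11, and 3.38 CPM (-2.60 ± 0.10). Hgf, the ligand of MET, rose from 39.6, 39.6, and 34.4 CPM to 91.4, 81.8, and 78.9 CPM (1.15 ± 0.06, adjusted p = 6.81e-14) and fell in vehicle (-0.31). Areg (amphiregulin), a ligand of the EGF receptor, rose from 37.3, 37.9, and 37.0 CPM to 88.4, 83.8, and 85.5 CPM (1.20 ± 0.05, adjusted p = 3.96e-16) and was at or below 0.362 CPM in vehicle at 8 and 24 h. Its estimated log2 change in vehicle, from few counts, was 1.32, and the interaction did not pass (difference -0.12, adjusted p = 0.837).

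Genes around prostaglandin E2 (PGE2), a lipid signal made from arachidonic acid, changed in part, and none of the enzymes by 2-fold. Of 11 tested, 3 rose and 6 fell (median -0.13, vehicle -0.07). Pla2g4a, the phospholipase that frees arachidonic acid, rose from 121, 122, and 122 CPM to 168, 162, and 163 CPM (0.43 ± 0.04, adjusted p = 2.06e-10). Ptgs1 (COX1) rose from 225, 208, and 204 CPM to 319, 314, and 307 CPM (0.56 ± 0.04). Ptgs2 (COX2), the inducible cyclooxygenase, fell from 1267, 1172, and 1185 CPM to 1064, 877, and 842 CPM (-0.38 ± 0.07, adjusted p = 4.48e-05), and each of these libraries lay far above the 97.9, 78.0, and 78.2 CPM of vehicle at 24 h. Ptges, the microsomal PGE2 synthase, had 118, 117, and 121 CPM and then 120.3, 115, and 114 CPM, a log2 change of -0.03 ± 0.04 that did not pass (adjusted p = 0.596). Slco2a1, the transporter that takes PGE2 back into cells, fell from 379.8, 354, and 359.8 CPM to 93.4, 98.1, and 94.6 CPM (-1.93 ± 0.04, adjusted p = 5.06e-23), against -0.45 in vehicle. Ptger4, the receptor EP4, fell from 19.4, 18.5, and 20.5 CPM to 9.23, 9.14, and 10.2 CPM (-1.03 ± 0.07).

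Ucp1 (ENSMUSG00000031710, GRCm38 chr8:83290352-83298452, plus strand) was counted only in FGF6-treated cells at 24 h. Its 3 libraries held 17, 19, and 25 counts (0.620, 0.679, and 0.917 CPM), and the other 15 libraries held 0, each of which allows up to 3 counts. Against the floor of 3 counts over the 8 h group, it was at least 20.9-fold higher at 24 h (adjusted p = 5.49e-06). The interaction was not called by edgeR, where the vehicle change it is set against rests on no counts. With DESeq2 (6.68) and limma-voom (5.27) the interaction was called. Of 24 brown fat and thermogenic genes, 14 could be tested, and 7 rose and 5 fell (median 0.09, vehicle 0.20). Kcnk3, a potassium channel known from brown fat, rose in both arms, from 1.37, 1.85, and 1.64 CPM to 4.45, 4.54, and 4.29 CPM with FGF6 (1.45 ± 0.17) and by 1.38 in vehicle. Elovl3, a fatty acid elongase of brown fat, fell from 0.423, 0.773, and 0.616 CPM to 0.182, 0.0714, and 0.110 CPM (-2.28 ± 0.45). Ppargc1b, a coactivator of mitochondrial genes, fell from 4.20, 4.67, and 4.52 CPM to 2.23, 2.75, and 1.61 CPM (-1.02 ± 0.15). The estrogen-related receptor Esrra fell from 52.8, 52.0, and 49.6 CPM to 36.3, 36.0, and 40.2 CPM (-0.46 ± 0.05) and rose in vehicle (0.35). Of its partners under study, Flii rose from 154, 150.4, and 155 CPM to 177, 184, and 186 CPM (0.25 ± 0.04) and in vehicle by 0.18, with no called difference between the arms (adjusted p = 0.325). Lrrfip1 had 250.2, 249, and 251 CPM and then 238, 243, and 235 CPM (-0.07 ± 0.03, adjusted p = 0.0788), which did not pass.

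Several other genes had little or no counterpart in vehicle. Of the genes that changed at least 2-fold with FGF6 and by at most 0.25 on the log2 scale in vehicle, with the interaction called, 83 rose and 306 fell. Itgb7, an integrin subunit, rose from 13.7, 14.8, and 14.2 CPM to 59.7, 60.2, and 59.8 CPM (2.07 ± 0.07, adjusted p = 1.3e-18), with 3.01, 3.11, and 2.14 CPM in vehicle at 24 h. Stra6, the receptor for retinol-binding protein, rose from 1.73, 1.38, and 1.48 CPM to 9.81, 8.79, and 8.00 CPM (2.53 ± 0.19). Fhod3, a formin that assembles actin, rose from 1.60, 0.975, and 1.07 CPM to 6.86, 8.50, and 8.29 CPM (2.68 ± 0.17) after 3.29, 3.12, and 3.86 CPM at 4 h. Fhod3 had thus been lower at 8 h than at 4 h before it rose.

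Among the increases of the largest size were also Tcim, from 5.37, 5.65, and 6.45 CPM to 49.1, 53.6, and 53.1 CPM (3.16 ± 0.09, adjusted p = 1.15e-19), and Hao1, a peroxisomal oxidase of glycolate, from 1.50, 1.04, and 1.44 CPM to 12.9, 11.4, and 12 CPM (3.19 ± 0.16, adjusted p = 5.94e-15). Both were low in vehicle, Hao1 at 0.0350, 0.0905, and 0.168 CPM at 24 h. Pi16, a protein of fibroblast progenitors counted among the preadipocyte markers, rose from 0.195, 0.672, and 0.411 CPM to 6.35, 5.29, and 7.16 CPM (3.87 ± 0.27). Bmf, a pro-apoptotic protein of the BH3-only kind, rose from 0.0651, 0.0672, and 0.288 CPM to 1.71, 0.714, and 1.10 CPM (3.13 ± 0.43), and yet stayed far below the 18.3, 22.9, and 20.7 CPM of vehicle.

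Changes of at least 2-fold in opposite directions were seen for 4 genes that rose with FGF6 and fell in vehicle and for 40 that fell with FGF6 and rose in vehicle. Apod (apolipoprotein D), a lipid carrier, fell from 25.8, 10.3, and 14.7 CPM to 0.292, 0.286, and 0.514 CPM (-5.54 ± 0.45, adjusted p = 7.42e-11) and rose in vehicle from 22.8, 19.9, and 24.9 to 45.1, 51.2, and 40.6 CPM. Sparcl1, a matricellular protein, fell from 29.6, 37.4, and 33.5 CPM to 5.54, 6.04, and 6.239 CPM (-2.49 ± 0.12) and rose in vehicle from 59.2, 72.9, and 71.3 to 141, 159.8, and 167 CPM. Phyhipl was among the few that went the other way, from 3.26, 2.55, and 2.14 CPM to 5.03, 5.68, and 5.65 CPM with FGF6 (1.03 ± 0.14) and from 2.68, 2.38, and 2.46 to 0.701, 0.694, and 0.504 CPM in vehicle.

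Lists of other cell functions were divided. Genes of the clock moved in both arms, with 11 of 19 rising and 4 falling with FGF6 and 13 rising and 4 falling in vehicle (medians 0.43 and 0.78). Tef, an output factor of the clock, rose from 20.4, 19.4, and 20.3 CPM to 75.0, 79.2, and 72.8 CPM (1.92 ± 0.05), and in vehicle by 1.53. Arntl (BMAL1), the partner of CLOCK, fell from 43.2, 41.5, and 38.8 CPM to 21.2, 19.9, and 21.3 CPM (-0.99 ± 0.06), and in vehicle by -0.82, with no called difference between the arms (adjusted p = 0.147). The E-box CACGTG, which that pair binds, was found in 6 of 21 promoters of the list (28.6%) and in 7.15% of all. Of 33 lysosome and autophagy genes, 10 rose and 18 fell (median -0.16, vehicle 0.12). Ctsl (cathepsin L) rose from 1510.0, 1599, and 1585 CPM to 3257, 3159, and 3132 CPM (1.02 ± 0.03), while Ctsk (cathepsin K) fell from 15.2, 14.2, and 16.9 CPM to 6.57, 6.61, and 6.53 CPM (-1.22 ± 0.09). Of 26 genes of the NRF2 and glutathione systems, 15 rose and 8 fell (median 0.28, vehicle 0.20). Srxn1 (sulfiredoxin), which repairs peroxiredoxins, rose from 301, 284, and 289 CPM to 811, 813, and 807 CPM (1.48 ± 0.03, adjusted p = 1.44e-21) against -0.07 in vehicle. Gpx3, the secreted glutathione peroxidase, fell from 7.23, 7.46, and 6.94 CPM to 1.06, 0.429, and 0.771 CPM (-3.26 ± 0.19), and in vehicle by -1.50.

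Of the remaining marker lists, 10 of 16 preadipocyte markers tested fell and 5 rose (median -0.62, vehicle -0.04), Cd24a among the latter from 1.46, 0.874, and 0.945 CPM to 3.43, 3.50, and 3.38 CPM (1.63 ± 0.19). Endothelial markers summed to 2.31 to 3.57 CPM at 8 h and 3.74 to 5.73 CPM at 24 h, where Cdh5 (VE-cadherin) rose from 1.07, 0.504, and 1.27 CPM to 4.16, 3.72, and 2.90 CPM (1.93 ± 0.29). The other endothelial marker tested, Kdr, had 1.01, 1.78, and 2.05 CPM and then 1.35, 1.11, and 0.807 CPM (-0.55 ± 0.29), which did not pass (adjusted p = 0.108). Epithelial markers summed to 1.99 to 2.96 and 4.96 to 6.57 CPM, with Krt19, a keratin and the only member of 3 tested that passed, rising from 1.17, 1.21, and 0.945 CPM to 3.39, 3.11, and 4.00 CPM (1.64 ± 0.22) and in vehicle by 1.75. Their part in the other results was not tested. At least 10% of the exonic bases of Timp3, Ptger1, Ptger4, Ctsl, Spry1, Phyhipl, Hmgcs1, Bnip3, Ankrd37, Tcim, Ube2c, and Hsp90b1 overlap a gene on the other strand and those of Igf2 a gene on the same strand. For 19 more of the named genes, Car9 and Pi16 among them, the overlap was smaller. Since the strand setting of the counting is not given in the sources used here, reads of such pairs cannot be told apart.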

How the data were processed

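Per the labels and the study's methods, STAR (GRCm38.p4) and Subread featureCounts (GENCODE genes) were the tools of the authors, who deposited raw counts without normalization. Tool versions, strand setting, and treatment of reads mapping to several places are not given in the sources used here. Labels gave each library's group and replicate number, and the dose came from the study's description. The study's other experiments were not analysed here.

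The filter filterByExpr over the 6 groups left 15071 of 48023 genes. These were scaled with TMM factors and fitted with the quasi-likelihood method of edgeR 4.0.16 (R 4.3.3) to all 18 libraries without covariates. Benjamini-Hochberg adjustment covered all genes tested, and an adjusted p under 0.05 was a call. Standard errors are those implied by the F statistic. CPM is a count over the TMM-scaled total of the kept genes. A group at 0 was set to a floor of 3 counts over the group, and exact 95% intervals, which cover counting error only, were given for ratios with up to 9 counts in the lower group. In single libraries 3 counts are 0.0905 to 0.126 CPM. In simulated counts for 24 h against 8 h with FGF6, 80 of 97 genes changed 2-fold (82.5%) and 96 of 99 changed 4-fold (97.0%) were recovered, with 6 false calls among 14689 genes. Those counts used the spread of this fit, and only 200 genes were changed, evenly up and down. Many more genes changed in the data, with unequal large changes, so recovery, scaling, and false calls under such conditions were not tested.

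The members, gene lists, and motifs were chosen with earlier results of these data known. Named genes were the 12 with the largest rise and the 12 with the largest fall, and 6 per direction among genes flat in vehicle and among genes moving the opposite way there, all with at least 1 CPM in the higher group and no overlap between times. To these were added 2 per direction in each list and the genes of the study. Genes shown with a promoter had the largest changes among list members holding the motif. Ifit2, Oasl1, and Kdr, outside this rule, were named after their values were seen. Lists were described by counts and medians, without a set test. Positions came from GENCODE M21, which held 47310 of the gene identifiers, and promoters from RefSeq.

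Each result was recomputed with limma-voom (limma 3.58.1), with DESeq2 1.42.0, with upper-quartile factors or plain library sizes for scaling, with genes unfiltered or held to 10 counts per library, with the compared groups by themselves, with the replicate number as a block, at a threshold of 0.25, and with each library left out. A correction for GC content and length, entered as an offset, was chosen after seeing the data.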

Additional observations from a re-analysis of the deposited data

Results flagged for a closer look

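For 6797 genes the change from 8 to 24 h differed between FGF6-treated and vehicle cells by the interaction test of edgeR at an adjusted p under 0.05. The values that follow are the log2 change with FGF6 minus that in vehicle, for genes named in the report, each past that threshold, and no explanation for them was weighed. More negative with FGF6 was the change by -6.56 for Apod, -6.51 for Egfl6, -5.88 for Lbp, -5.83 for Adipoq, -5.55 for Cxcl9, -5.45 for Ccl11, -5.25 for Saa3, -5.24 for Ifi44, and -5.17 for Oas2. It was further -4.83 for Mx2, -4.34 for Agt, -4.17 for C4b, -4.02 for Kng1, -3.85 for Ogn, -3.81 for Oas1a, -3.77 for Bst2, -3.69 for Sparcl1, and -3.65 for Gbp3. Values followed of -3.43 for Hp, -3.34 for Col15a1, -3.24 for Serpina3n, -3.17 for Igf1, -3.12 for Col5a3, -2.97 for Acta1, -2.90 for Egr2, -2.49 for Timp3, and -2.41 for Lcn2. Then came -2.38 for Ccn5, -2.38 for Elovl3, -1.82 for Igf2, -1.76 for Gpx3, -1.71 for Kdr, -1.69 for Lpl, -1.66 for Col1a1, -1.48 for Slco2a1, and -1.28 for Ifit2. Smaller differences were -1.19 for Spry1, -1.11 for Cd68, -1.02 for Ppargc1b, -0.97 for Slc1a5, -0.93 for Ier5, -0.92 for Ctsk, -0.83 for Slc7a1, -0.81 for Esrra, and -0.78 for Ptger1. Next in size were -0.66 for Cdk6, -0.63 for Cdt1, -0.53 for Sdc1, -0.52 for Eno2, -0.50 for Ptger4, -0.49 for Pdk4, -0.40 for Ptgs2, -0.38 for Rrp12, and -0.35 for Pold1. The remainder below 0 held -0.33 for Lrrfip1. Egfl6, Lbp, Adipoq, Ccl11, and Kng1 had at most 2 counts in any FGF6 library of 24 h, and Adipoq had 0 in each. The sizes of their differences are thus poorly known. So is that of Elovl3, which had at most 4 counts in any vehicle library of 8 or 24 h.

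In the positive direction, the difference was 3.52 for Hao1, 3.17 for Mmp3, 3.00 for Pi16, 2.99 for Dcn, 2.99 for Phyhipl, 2.71 for Fhod3, 2.64 for Stra6, 2.61 for Ankrd37, and 2.24 for Itgb7. Further positive values were 2.18 for Bmf, 2.00 for Tcim, 1.99 for Slc16a3, 1.86 for Ccng2, 1.85 for Il33, 1.84 for Bnip3, 1.80 for Spry3, 1.76 for Car9, and 1.67 for Ddit4. After these came 1.58 for Lum, 1.55 for Srxn1, 1.54 for Etv1, 1.48 for Pdk1, 1.45 for Hgf, 1.35 for Bub1, 1.35 for Il11, 1.30 for Cd24a, and 1.22 for Ctsl. Smaller positive values were 1.10 for Ccnb2, 0.92 for Top2a, 0.88 for Ect2, 0.71 for Ier3, 0.70 for Ube2c, 0.68 for Hmgcs1, 0.57 for Hsp90b1, 0.50 for Scd2, and 0.49 for mt-Nd1. The last were 0.45 for Rrm1, 0.39 for Fgfrl1, 0.39 for Tef, 0.34 for Insig1, 0.32 for Pla2g4a, and 0.19 for Ptgs1. Hao1 had at most 4 counts in any vehicle library of 8 or 24 h, so the size of its difference is poorly known.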

How the results depend on the processing

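Of 270 counts of genes recomputed under these alternatives, 262 stayed within 1.5 times of the value reported. The others came mostly from requiring at least 10 counts in every library, which leaves out genes with fewer in any library. Genes changed at least 2-fold were then 264 higher and 646 lower with FGF6, 152 higher and 96 lower in vehicle, and 165 higher and 631 lower for the difference between arms. That difference gave 457 genes higher by at least 2-fold at an adjusted p under 0.25, and 2131 genes higher with an offset for GC content and length. The cause was not tested. Among the calls of vehicle cells 51.8% were higher, against 36.4% with library sizes alone and 69.1% with that offset, and among the calls of the difference 50.2%, against 32.1% with the offset. Leaving out a library of the groups compared gave 8774 to 8926 changed genes with FGF6, 6627 to 7043 in vehicle, and 6287 to 6607 for the difference.

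Of 464 recomputed list medians with FGF6, 330 moved by less than 1 SD between replicates and 134 by more. The sign changed for that of the immediate early genes, which was 0.048 without FGF6 8 h replicate 1. Among the largest moves, the median of those skeletal muscle markers that passed the filter went from -2.481 to -1.368 with at least 10 counts in every library and to -1.367 with only the groups compared, and that of the epithelial markers from 0.772 to 1.602 with at least 10 counts in every library.

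Among 2369 recomputed log2 changes of named genes with FGF6, 2332 kept direction and call, 30 lost the call, 7 gained it, and 0 reversed. Of 3280 recomputed differences between arms, 75 lost the call, 16 gained it (among them that of Ucp1 with DESeq2 and limma-voom), and 1 reversed, that of Cox7b, at -0.012 with the offset. Of the FGF6 changes called in the text, none lost its call, and that of Lrrfip1 gained it with DESeq2, with library sizes alone, with either change of the filter, with only the groups compared, and at 0.25 (-0.111 to -0.068). The difference of Elovl3 (-2.38) lost its call without FGF6 24 h replicate 2 (-2.11), vehicle 24 h replicate 2 (-2.10), or vehicle 8 h replicate 2 (-2.20), and with no filter. That of Ptgs1 (0.19) lost it without FGF6 8 h replicate 3 (0.16) or vehicle 8 h replicate 1 (0.12), and with the offset (0.11). That of Rpl39 (0.18) gained a call with library sizes alone (0.237), with upper-quartile factors (0.211), and at 0.25. The same held without FGF6 24 h replicate 1 (0.217) or FGF6 8 h replicate 3 (0.215). The labels do not say whether same-numbered libraries were handled together, and correlations cannot settle it. With FGF6, deviations from the group means of same-numbered libraries of 8 h and 24 h correlated at -0.116, 0.142, and -0.0662 across 10381 genes. FGF6 8 h replicate 1 correlated best with 24 h replicate 3 (0.208), and 8 h replicate 2 with its own number. In vehicle the same-numbered pairs correlated at 0.212, 0.0689, and 0.112, and each 8 h library correlated best with its own number, a hint from the data and not from the design. With the replicate number as a block, 9403 genes changed with FGF6, 7479 in vehicle, and 6855 in the difference. Depth limits what can be said of genes near the floor, such as Ucp1, Kng1, Lbp, Egfl6, Adipoq, and Ccl11, and Hao1 and Elovl3 in vehicle.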
